A study of Mus musculus with 45 samples.

Results

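The genes described here are 9 members of the endoplasmic reticulum (ER) stress response and of the C/EBP family of transcription factors, namely Ddit3, Ppp1r15a, Xbp1, Herpud1, Calr, Pdia4, Cebpb, Cebpd and Cebpg. Their RNA was followed in the mouse fibroblast line NIH-3T3, derived from embryos, on 45 Affymetrix arrays in 11 groups. The platform annotation gave 20 of 31390 probe sets to these 9 of 13232 genes, counting only probe sets with exactly 1 symbol. A probe set is a group of short probes that together read 1 transcript. Each member is given by its probe set of highest mean over all 45 arrays, and the other 11 probe sets stand beside it. Values are log2 of the deposited intensities, and levels of different probe sets are not compared with each other.

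Total RNA was taken after 1 h and after 2 h of 5 µg/ml actinomycin D, a drug that blocks transcription, and from cells before the drug, which served as the untreated cells. In other samples, RNA made during a labelling pulse took up 4-thiouridine (4sU), a uridine analogue by which new RNA can be separated from old. Newly transcribed RNA (nt) was measured after 15 min and 30 min at 500 µM 4sU and after 60 min at 200 µM, so the dose differs between 30 min and 60 min. The unlabelled, pre-existing fraction (p) was available for 60 min, and total RNA (tc) for 30 min and 60 min. Total RNA of labelled cells was taken after fresh medium with 4sU. A second 60 min experiment at 200 µM, with newly transcribed and total RNA, is marked 2F, a name that the labels leave unexplained, as they do the word mock, which names the samples labelled for 15 min or 60 min. The groups had 3 arrays each, except newly transcribed and total RNA at 30 min with 9 arrays each. No label states that the arrays of a group came from separate cultures, so p-values reflect only how far arrays differ, and that spread may be technical.

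When unfolded protein accumulates in the ER, the sensors PERK, IRE1 and ATF6 slow translation and switch on genes that restore folding capacity. PERK acts through phosphorylation of eIF2alpha and the factor ATF4, IRE1 acts by splicing Xbp1 mRNA, and ATF6 is released from the ER as a transcription factor. Ddit3 encodes CHOP, a C/EBP-like factor that acts in prolonged stress, and Ppp1r15a encodes GADD34, which leads a phosphatase to eIF2alpha and so reverses the translational block. Herpud1 takes part in ER-associated degradation, Calr encodes calreticulin, a calcium-binding lectin chaperone, and Pdia4 encodes a protein disulphide isomerase. Cebpb and Cebpd are C/EBP factors of inflammation and of fat cell differentiation, and Cebpg is a family member that dimerises with the others and with ATF4. Spliced and unspliced Xbp1 are not told apart here.

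In the mouse assembly GRCm38.p6, RefSeq places Ddit3 at chr10:127290793-127296291 and Ppp1r15a at chr7:45522917-45526268. Xbp1 lies at chr11:5520641-5525993, Herpud1 at chr8:94386429-94395371 and Calr at chr8:84842088-84846931. Pdia4 lies at chr6:47796141-47813512, Cebpb at chr2:167688915-167690432, Cebpd at chr16:15887286-15889545 and Cebpg at chr7:35046422-35056566. Which exon or UTR each probe set reads was not determined here.

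Promoter stretches of 4 members are shown because their letters match elements through which this response is known to act, in genes whose RNA followed different courses in the data. All 4 are from RefSeq (GRCm38.p6), written 5′ to 3′ on the strand of the gene, and capitals mark the letters of the match. The Calr stretch (chr8:84847042-84847111, minus strand) holds the ER stress element, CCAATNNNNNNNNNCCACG, in reverse orientation. The Herpud1 stretch (chr8:94386359-94386428, plus strand) holds the ER stress element II, ATTGGNCCACG. Nearer the gene it holds the first element without its last G, whose place would lie past the bases searched and was not read. The Pdia4 stretch (chr6:47813568-47813637, minus strand) holds that same shortened element in reverse orientation, and the Ppp1r15a stretch (chr7:45526269-45526318, minus strand) holds the cAMP response element, TGACGTCA.
Calr: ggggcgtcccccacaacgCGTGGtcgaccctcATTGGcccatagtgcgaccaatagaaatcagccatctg
Herpud1: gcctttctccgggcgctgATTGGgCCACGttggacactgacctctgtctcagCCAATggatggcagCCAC
Pdia4: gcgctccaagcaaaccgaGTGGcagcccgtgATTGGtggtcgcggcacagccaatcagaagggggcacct
Ppp1r15a: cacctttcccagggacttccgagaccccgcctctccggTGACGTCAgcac

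Motifs were searched on both strands of the 250 bases before the start, in 32851 promoters, of which 8 of 9 members have one (Cebpd was not analysed for motifs). The full ER stress element occurred in 0.113% of promoters, and among members in Calr, at positions -162 to -144 from the start. The ER stress element II occurred in 0.0304%, and among members in Herpud1, at -52 to -42. The shortened element, which includes every match of the full one, occurred in 0.32%, and in 3 members, Calr, Herpud1 (-18 to -1) and Pdia4 (-107 to -90). The Herpud1 match ended at the last base of the window, so whether the full element is there was not examined. The CCAAT part alone occurred in 33.8% of promoters and in 5 members, adding Cebpg and Ddit3. The cAMP response element occurred in 1.55%, and among members in Ppp1r15a (-12 to -5). The ATF4-C/EBP core TTGCATCA occurred in 0.791%, and among members in Herpud1 (-112 to -105), whereas the C/EBP palindrome TTGCGCAA, found in 0.164%, occurred in 0 members. A match describes the letters of the window and not a bound site.

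In untreated cells 9 of 9 fibroblast markers had a mean log2 of 5 or more (10.14 to 14.17), and the markers measured for epithelial cells (0 of 2), leukocytes (0 of 2), endothelium (0 of 2) and muscle (0 of 1) were between 2.26 and 3.37. The 30 min arrays fell into 3 sets of 3, replicates 1, 4, 7, then 2, 5, 8, then 3, 6, 9, which the labels do not mention. The median absolute log2 difference between 2 arrays of total RNA was 0.0836 to 0.138 within a set and 0.210 to 0.403 between sets. In newly transcribed RNA it was 0.121 to 0.219 within sets and 0.149 to 0.469 between sets, so that p-values over 9 arrays are too small if a set is 1 culture. Total RNA of the first 60 min experiment varied most among the total RNA groups (0.326 to 0.597 between its arrays), and that of the 2F experiment least (0.0651 to 0.0770). Newly transcribed and pre-existing RNA of the first 60 min experiment are therefore also set against the 2F total RNA.

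**Figure D1:**
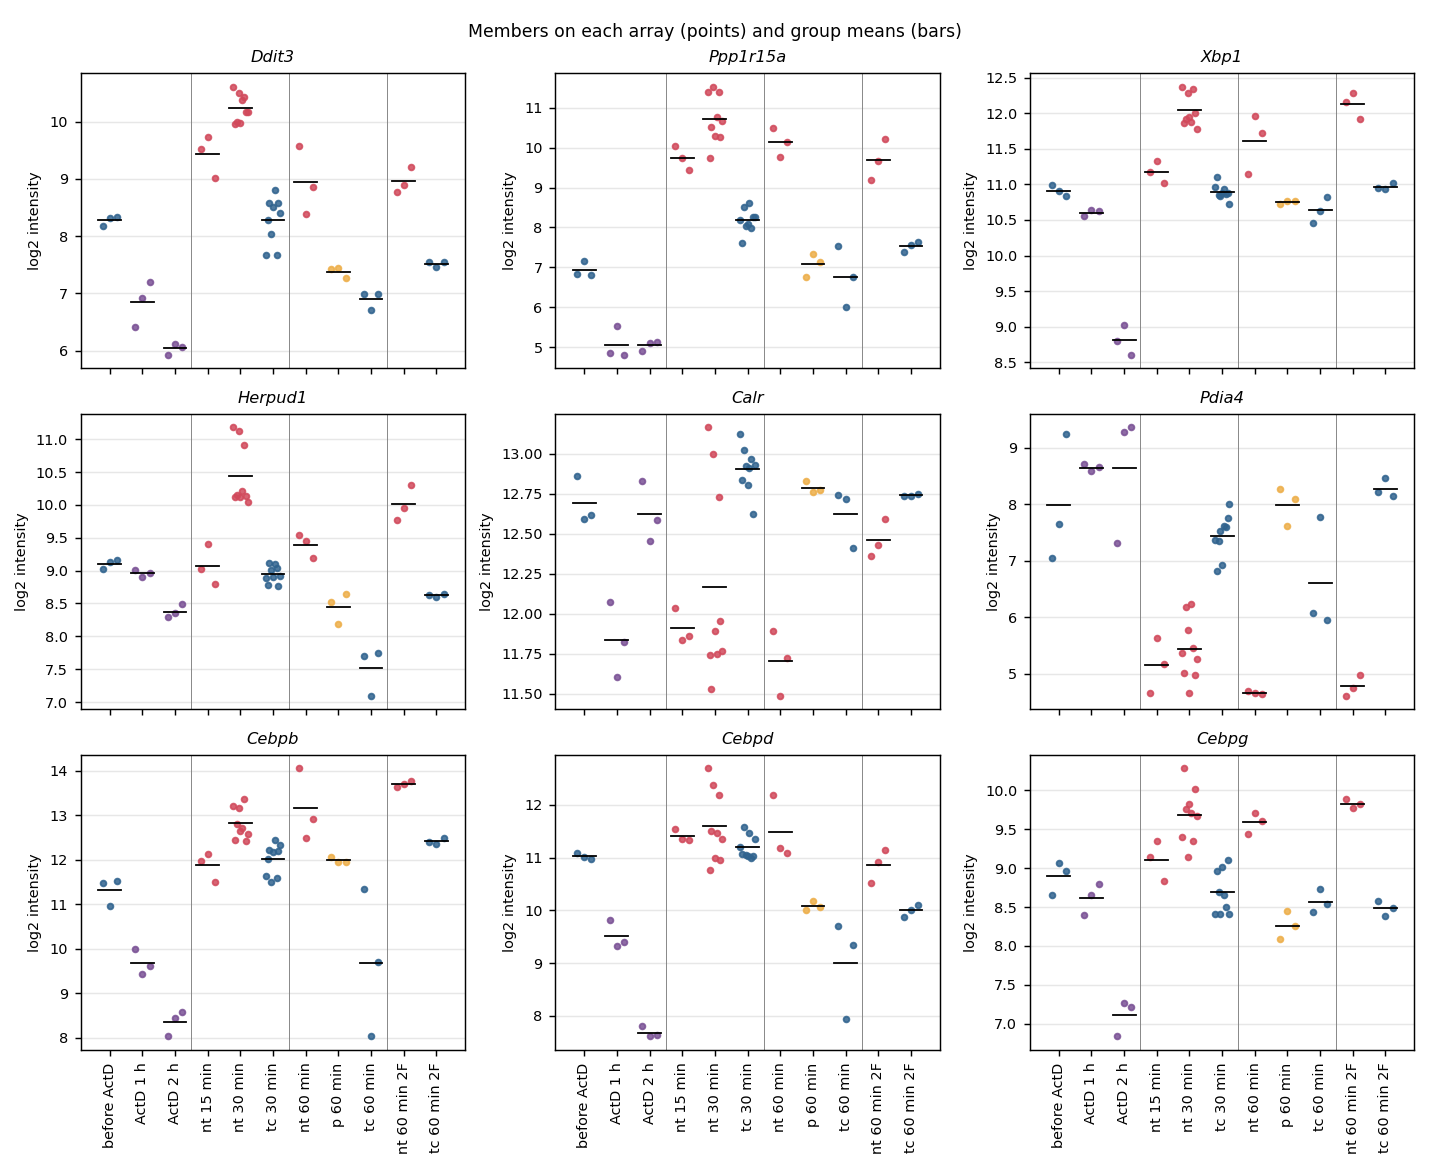
Log2 intensity (vertical axis) of the 9 members, 1 panel per gene, by group (horizontal axis), with each point an array and each bar a group mean. Ddit3, Ppp1r15a, Cebpb, Cebpd, Xbp1 and Cebpg are lowest after actinomycin D, while Pdia4 is lowest in newly transcribed RNA, and the 3 arrays of total RNA at 60 min lie far apart for Cebpb (11.34, 8.03 and 9.69).

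Within 1 h of actinomycin D, 4 of the 9 members fell and 0 rose. These were the stress regulators Ppp1r15a and Ddit3 and the transcription factors Cebpb and Cebpd. Each change is a limma estimate on the log2 scale ± its standard error. It was called where the fold change was 2 or more and p, adjusted by Benjamini-Hochberg across every probe set in the fit, was under 0.05. By this rule 3.58% of all probe sets were lower and 2.57% higher. The median change of the members was -0.86, beside 0.09 over all 15060 probe sets tested. Every change is relative to the other transcripts on the array, and in bulk RNA fewer cells and less RNA per cell cannot be told apart.

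Ppp1r15a had log2 intensities of 6.83, 7.16 and 6.80 in untreated cells, 4.84, 5.53 and 4.81 after 1 h and 4.90, 5.12 and 5.14 after 2 h. The drug-treated arrays lay below all untreated ones, and those of 1 h and 2 h overlapped. Ppp1r15a fell by 1.87 ± 0.19 at 1 h (adjusted p = 0.000296) and fell by 1.88 ± 0.19 at 2 h (adjusted p = 5.5e-05), with -0.01 between the 2 times. The means of the drug groups, 5.05 at 2 h and 5.06 at 1 h, were close to the minimum mean of 5 that the fit required of a probe set.

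Ddit3 had 8.17, 8.32 and 8.33 in untreated cells, 6.41, 6.92 and 7.20 after 1 h and 5.93, 6.12 and 6.07 after 2 h. The 3 groups did not overlap. Ddit3 fell by 1.43 ± 0.18 at 1 h (adjusted p = 0.00072) and fell by 2.23 ± 0.18 at 2 h (adjusted p = 9.6e-06), and the step of -0.80 ± 0.18 in the second hour did not reach a fold change of 2, although it did without 1 h replicate 1 (-1.02).

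The 2 C/EBP activators kept falling over both hours. Cebpd had 11.08, 11.02 and 10.98 in untreated cells, 9.81, 9.33 and 9.41 after 1 h and 7.80, 7.61 and 7.63 after 2 h. Cebpb had 11.48, 10.95 and 11.51 in untreated cells, 9.999, 9.44 and 9.61 after 1 h and 8.04, 8.44 and 8.58 after 2 h. For neither gene did any of the 3 groups overlap. Cebpd fell by 1.51 ± 0.14 at 1 h and fell by 3.34 ± 0.14 at 2 h (adjusted p = 0.00016 and 2.3e-07), the furthest of the members. Cebpb fell by 1.63 ± 0.21 at 1 h and fell by 2.97 ± 0.21 at 2 h (adjusted p = 0.00074 and 3.8e-06), and its other probe set had -1.40 and -3.30.

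After 2 h 6 of the 9 members had fallen, against 9.42% of probe sets lower and 0.538% higher, and the median of the members was -1.88, beside 0.10 over all probe sets. The additional genes were Xbp1 and Cebpg, which were called in the second hour and not in the first. Xbp1, the target of IRE1, had 10.99, 10.90 and 10.84 in untreated cells, 10.55, 10.64 and 10.63 after 1 h and 8.80, 9.02 and 8.60 after 2 h. Its change was -0.31 ± 0.12 in the first hour (adjusted p = 0.071) and -1.80 ± 0.12 in the second (adjusted p = 1.2e-05). The 1 h arrays lay just under the untreated ones, and the 2 h arrays far under both. The other 2 Xbp1 probe sets that were tested had -0.32 and -0.43 at 1 h and -2.13 and -2.07 at 2 h, both called.

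Cebpg had 8.66, 9.07 and 8.97 in untreated cells, 8.40, 8.65 and 8.79 after 1 h and 6.84, 7.27 and 7.22 after 2 h. Its untreated and 1 h arrays overlapped, and its 2 h arrays were lower than both. The change was -0.29 ± 0.16 in the first hour (adjusted p = 0.19) and -1.503 ± 0.16 in the second (adjusted p = 0.00014). Its probe set 1451639_at had -0.34 and then -0.91, short of a fold change of 2 in the second hour, and fell by 1.25 over both. Between 1 h and 2 h, 4 members fell (Cebpd -1.83, Xbp1 -1.80, Cebpg -1.503 and Cebpb -1.33) and 0 rose, against 7.32% of probe sets lower and 2.28% higher.

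None of the 3 genes of protein folding and degradation was called at 1 h or 2 h, where 3.58% and 9.42% of all probe sets were lower. Herpud1 had 9.02, 9.13 and 9.16 in untreated cells, 9.01, 8.91 and 8.96 after 1 h and 8.29, 8.36 and 8.49 after 2 h. Its -0.73 ± 0.10 at 2 h had an adjusted p of 0.00039 and was short of a fold change of 2. Calr had 12.86, 12.59 and 12.62 in untreated cells, 12.07, 11.60 and 11.82 after 1 h and 12.83, 12.46 and 12.58 after 2 h. The 1 h arrays of Calr lay apart from both other groups, which overlapped with each other. Its values were -0.86 ± 0.15 at 1 h (adjusted p = 0.0028) and -0.07 ± 0.15 at 2 h (adjusted p = 0.75), with 0.79 ± 0.15 between 1 h and 2 h. The other 2 Calr probe sets had -0.79 and -0.74 at 1 h and 0.02 and 0.06 at 2 h, so the low point at 1 h was read by 3 of 3 probe sets. Pdia4 had 7.05, 7.64 and 9.24 in untreated cells, 8.70, 8.58 and 8.66 after 1 h and 7.30, 9.27 and 9.36 after 2 h. With this spread in untreated cells its 0.67 ± 0.61 at each time was not resolved (adjusted p = 0.41 and 0.41), and its 95% interval at 2 h ran from -0.69 to 2.02.

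**Figure D2:**
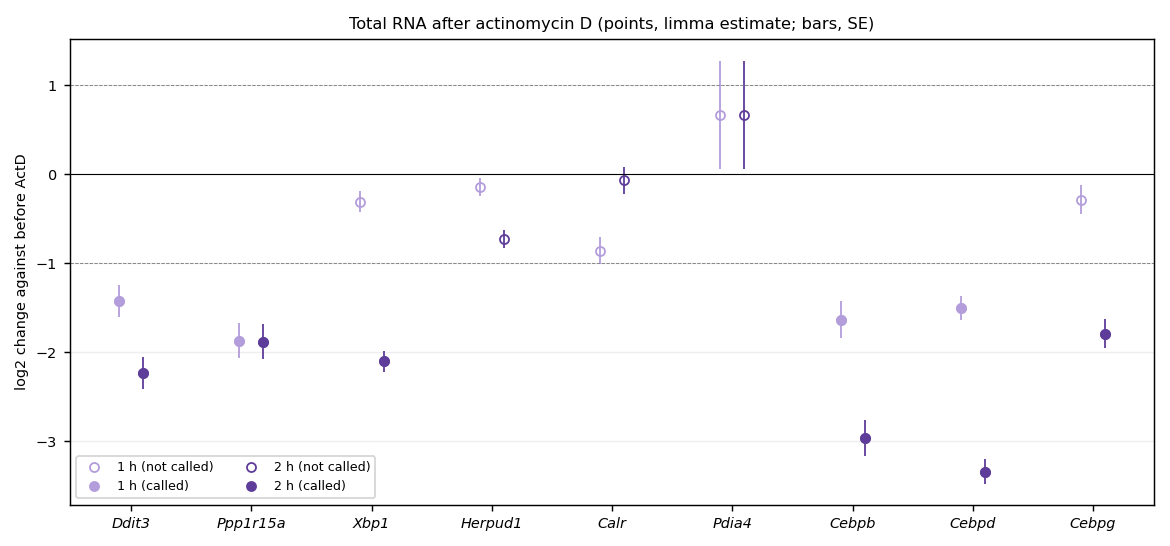
Log2 change (vertical axis) of each member (horizontal axis) after 1 h and 2 h of actinomycin D against untreated cells, as limma estimates with standard errors. Filled points were called, the dashed lines mark a fold change of 2, and Xbp1 and Cebpg stand out as genes called at 2 h (-2.10 and -1.79) and not at 1 h (-0.31 and -0.29).

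If decay is taken as exponential from the moment the drug is added, the 2 h change corresponds to a half-life of 35.9 min for Cebpd (95% interval 32.9 to 39.5), 40.5 min for Cebpb (35.01 to 47.94) and 53.8 min for Ddit3 (45.6 to 65.5). It corresponds to 57.0 min for Xbp1 (50.6 to 65.4), 63.8 min for Ppp1r15a (51.8 to 82.9), 67.0 min for Cebpg (55.7 to 84.2) and 165 min for Herpud1 (126 to 237). The 1 h change gave 32.1 min for Ppp1r15a (26.0 to 41.8), 36.7 min for Cebpb, 39.8 min for Cebpd and 42.0 min for Ddit3 (32.8 to 58.3). Thus Cebpb and Cebpd gave like values at both times, Ppp1r15a gave 63.8 min from the 2 h change and 32.1 min from the 1 h change, and Xbp1 gave 57.0 min and 195 min (104 to 1533). Cebpg gave 209 min from the 1 h change (92.0 to no upper limit), and Calr gave 1743 min from the 2 h change (295 to no upper limit) and 69.8 min from the 1 h change (50.1 to 115). The intervals of the 2 times did not overlap for Ppp1r15a, Xbp1, Cebpg or Calr. For Xbp1, Cebpg and Calr, 1 exponential therefore does not describe both hours. Ppp1r15a had means of 5.06 at 1 h and 5.05 at 2 h, near the minimum of 5. Whether low signal hid a further fall of Ppp1r15a was not tested. Herpud1 gave 407 min from the 1 h change (162 to no upper limit), and Pdia4 gave none. All of these half-lives are relative to the other transcripts on the array, and their intervals cover only the spread of arrays. Half-lives from labelling are not given, because the scale factor on which they rest (0.0279) varied between -0.0771 and 0.0818 when 1 total RNA array was left out, -0.0771 being the value without total RNA replicate 1.

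In newly transcribed RNA after 30 min, 4 of the 9 members were higher than in total RNA and 1 was lower. Ppp1r15a, Ddit3, Herpud1 and Xbp1 were enriched, and Pdia4 was depleted. Against this, 23.7% of all probe sets were higher and 25.6% lower. A transcript that turns over fast makes up a larger share of new RNA than of total RNA. The median of the members was 1.00, beside -0.14 over all 16044 probe sets tested.

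Ppp1r15a had 9.73, 10.67 and 11.53 (lowest, median and highest of 9 arrays) in newly transcribed RNA, against 7.62, 8.19 and 8.62 in total RNA. Ddit3 had 9.96, 10.17 and 10.61 in newly transcribed RNA, against 7.67, 8.40 and 8.81 in total RNA. For both genes the fractions did not overlap. The changes were 2.55 ± 0.21 for Ppp1r15a (adjusted p = 1.15e-09) and 1.96 ± 0.15 for Ddit3 (adjusted p = 4.7e-10).

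Herpud1 had 10.04, 10.14 and 11.18 in newly transcribed RNA, against 8.76, 8.91 and 9.11 in total RNA. Xbp1 had 11.77, 11.94 and 12.37 in newly transcribed RNA, against 10.72, 10.88 and 11.10 in total RNA. These fractions also did not overlap, with changes of 1.499 ± 0.16 for Herpud1 (adjusted p = 4.4e-08) and 1.15 ± 0.09 for Xbp1 (adjusted p = 8.4e-10). Pdia4 had 4.65, 5.37 and 6.24 in newly transcribed RNA, against 6.82, 7.52 and 8.00 in total RNA. Here newly transcribed RNA was lower on every array, with -2.003 ± 0.21 (adjusted p = 2.8e-08). Pdia4 passed the minimum mean of 5 through total RNA, and its newly transcribed groups, with means of 4.66 to 5.43, lay near or under it, so the sizes of its differences are uncertain here and below.

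The C/EBP factors and Calr did not pass at 30 min. Cebpg had 9.14, 9.71 and 10.29 in newly transcribed RNA, against 8.41, 8.66 and 9.11 in total RNA, and its 1.00 ± 0.15 stopped just short of a fold change of 2 (adjusted p = 3.7e-06). It passed after quantile normalization, at 1.08, and its probe sets 1451639_at (1.16) and 1425261_at (3.08) were called. Cebpb had 0.80 ± 0.16 (adjusted p = 0.00012), and its other probe set was called at 1.09. Cebpd had 0.39 ± 0.22 (adjusted p = 0.11). Calr had -0.74 ± 0.20 (adjusted p = 0.0023), and of its other probe sets 1456170_x_at was called at -1.12. The fractions overlapped for Cebpb, Cebpd and Calr.

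The size of the 30 min enrichment differed between the sets of 3 arrays. For Cebpd, newly transcribed minus total RNA was 1.35 in the set of replicates 1, 4 and 7, and -0.13 and -0.03 in the other sets. For Cebpb it was 1.67 in that set, and 0.37 and 0.37 in the others. Ppp1r15a (3.37, 2.10 and 2.18), Ddit3 (2.72, 1.58 and 1.59) and Herpud1 (2.09, 1.32 and 1.09) were likewise highest in the first set, as was Xbp1 (1.45, 0.98 and 1.02), whereas Calr was nearest to 0 there (-0.04, -0.89 and -1.27). Pdia4 had -1.96, -2.29 and -1.76, and Cebpg 0.85, 1.01 and 1.12. When the 3 arrays of a set were averaged before the fit, the number of members called stayed at 5.

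In the first 60 min experiment 6 members were higher in newly transcribed than in total RNA and 1 was lower, against 17.7% of probe sets higher and 21.8% lower. The enriched genes were Cebpb, Ppp1r15a, Cebpd, Ddit3, Herpud1 and Cebpg, and Pdia4 was depleted. Cebpb had 14.06, 12.48 and 12.92 in newly transcribed RNA, against 11.34, 8.03 and 9.69 in total RNA. Cebpd had 12.19, 11.19 and 11.09 in newly transcribed RNA, against 9.71, 7.95 and 9.34 in total RNA. The fractions did not overlap, but the total RNA arrays of both genes were spread widely. The changes were 3.46 ± 0.71 for Cebpb (adjusted p = 0.0033) and 2.49 ± 0.46 for Cebpd (adjusted p = 0.0019).

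Ppp1r15a had 10.50, 9.76 and 10.15 in newly transcribed RNA at 60 min, against 7.53, 6.02 and 6.77 in total RNA, a change of 3.36 ± 0.39 (adjusted p = 0.00018). Ddit3 had 9.56, 8.39 and 8.86 in newly transcribed RNA, against 6.98, 6.72 and 6.98 in total RNA, a change of 2.04 ± 0.30 (adjusted p = 0.00063). Both were apart on every array. Herpud1 (1.88 ± 0.27) and Cebpg (1.02 ± 0.23) were also higher, Xbp1 had 0.97 ± 0.26 and Calr -0.92 ± 0.23, both short of a fold change of 2, and Pdia4 was lower (-1.94 ± 0.44, adjusted p = 0.0059). Pdia4 had 4.68, 4.66 and 4.64 in newly transcribed RNA, against 6.08, 7.78 and 5.95 in total RNA.

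These 60 min values depend on the total RNA used. With the total RNA of the 2F experiment in place of that of the first experiment, a choice made after the data were seen, Cebpb had 0.74 (adjusted p = 0.087) and Herpud1 0.77 (adjusted p = 0.0037), and neither was called, nor was Xbp1 (0.64, adjusted p = 0.022). Ppp1r15a (2.61), Cebpd (1.49), Ddit3 (1.42) and Cebpg (1.103) were still called, as was Pdia4 at -3.61, and Calr was called at -1.04. Cebpg was not called without newly transcribed replicate 2 (0.96) or total RNA replicate 1 (0.96). Xbp1 (1.20) and Calr (-1.02) were called without newly transcribed replicate 1, and also without total RNA replicate 3 (1.06 and -1.03).

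In the 2F experiment, whose total RNA arrays were closest to each other, 6 members were higher in newly transcribed RNA and 1 was lower, against 24.0% of probe sets higher and 21.8% lower. Ppp1r15a had 9.19, 9.67 and 10.23 in newly transcribed RNA, against 7.39, 7.56 and 7.64 in total RNA, a change of 2.16 ± 0.23 (adjusted p = 1.8e-05). Cebpb had 13.64, 13.69 and 13.76 in newly transcribed RNA, against 12.39, 12.36 and 12.49 in total RNA, a change of 1.29 ± 0.09 (adjusted p = 1.1e-06). Both were apart on all arrays, and the arrays of each fraction were close together for Cebpb. Ddit3 (1.44 ± 0.12), Herpud1 (1.38 ± 0.14), Cebpg (1.34 ± 0.09) and Xbp1 (1.16 ± 0.11) were the other genes enriched. Pdia4 had 4.61, 4.74 and 4.98 in newly transcribed RNA, against 8.22, 8.46 and 8.14 in total RNA (-3.50 ± 0.13, adjusted p = 8.7e-08), with every newly transcribed array under 5. Cebpd had 0.86 ± 0.15 and was called without newly transcribed replicate 1 (1.03). Calr had -0.28 ± 0.09 (adjusted p = 0.019). The median of the members was 1.29, beside 0.04 over all 16205 probe sets tested.

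**Figure D3:**
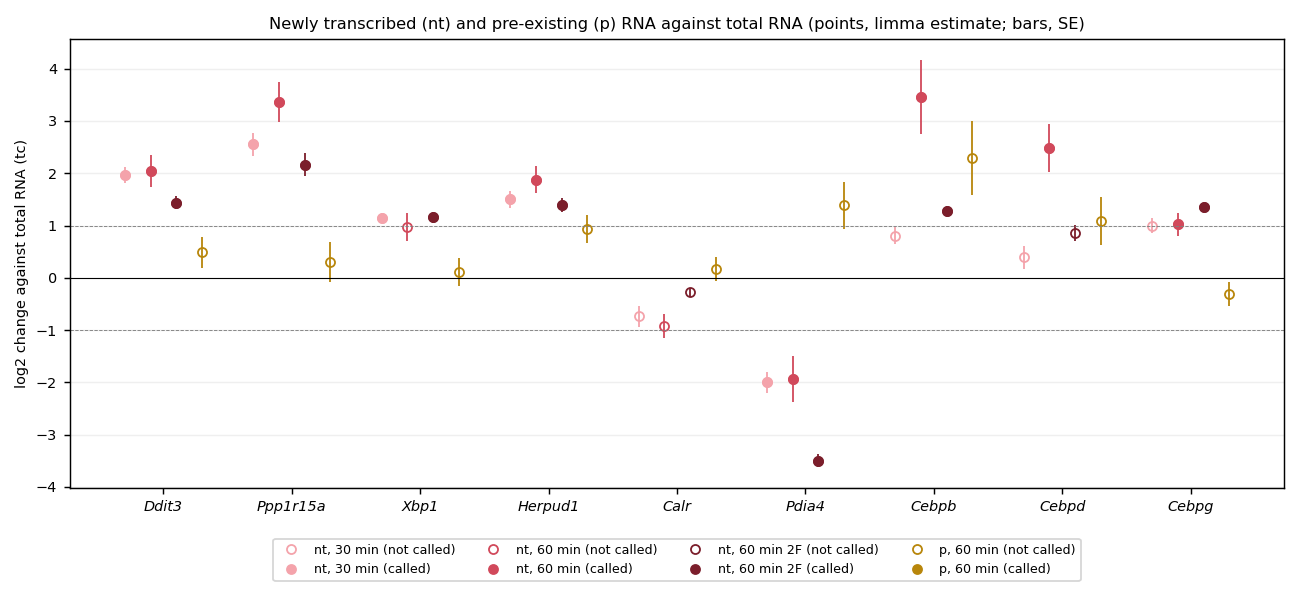
Log2 change against total RNA (vertical axis) of each member (horizontal axis) for newly transcribed RNA at 30 min, 60 min and 60 min 2F and for pre-existing RNA at 60 min, as limma estimates with standard errors. Filled points were called, the dashed lines mark a fold change of 2, and Pdia4 (-2.003, -1.94 and -3.50) stands opposite to Ppp1r15a (2.55, 3.36 and 2.16) in all 3 experiments.

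Whether enrichment differed between experiments was tested as the difference of the 2 changes, called by the adjusted p alone. Of 27 such tests of members, 3 passed. At 60 min the enrichment of Cebpb was 2.66 ± 0.54 above that at 30 min (adjusted p = 0.0010) and that of Cebpd 2.10 ± 0.48 above (adjusted p = 0.0024), in a comparison where 31.1% of all probe sets passed. With the 2F total RNA in its place, the difference for Cebpb was -0.065 (adjusted p = 0.91) and that for Cebpd 1.098 (adjusted p = 0.065), so neither call held, whereas Pdia4 was then called as lower. For Pdia4 the 2F experiment minus 30 min gave -1.495 ± 0.44 (adjusted p = 0.042), where 5.72% passed. Its newly transcribed means were 4.77 in the 2F experiment and 5.43 at 30 min, the first under the minimum of 5, and its total RNA means 8.27 and 7.44. With the sets of 3 averaged, Cebpd was still called, and the adjusted p was 0.056 for Cebpb and 0.27 for Pdia4. Pdia4 lost its call whichever of the 6 arrays of the 2F experiment was left out (-1.60 to -1.40), and in 1 fit over all 45 arrays (adjusted p = 0.061). Between the 2F and the first 60 min experiment 0 of 9 members differed by limma's adjusted p (4 at an unadjusted p below 0.05), where 0.401% of probe sets passed. The estimate for Cebpb was -2.18 ± 0.66 (adjusted p = 0.11), the largest in size. Experiments also differed in 4sU dose and, for total RNA, in the spread of arrays, and the part of either in these differences was not tested.

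Pre-existing RNA at 60 min differed from total RNA for 0 of 9 members by limma (4 at an unadjusted p below 0.05), against 1.87% of probe sets higher and 6.96% lower. Cebpb had 12.06, 11.95 and 11.96 in pre-existing RNA, against 11.34, 8.03 and 9.69 in total RNA. The pre-existing arrays were close together and above all total RNA arrays, and the change was 2.30 ± 0.71 (adjusted p = 0.073). Pdia4 had 1.39 ± 0.44 (adjusted p = 0.082), Cebpd 1.09 ± 0.46 (adjusted p = 0.16) and Herpud1 0.94 ± 0.27 (adjusted p = 0.056). With the replicate number as a block, which pairs the samples here by the correlation of their deviations, Cebpb was called (adjusted p = 0.023), and without total RNA replicate 1 Cebpb (3.12) and Herpud1 (1.03) were called, as was Pdia4 without total RNA replicate 2 (1.97). Against the 2F total RNA, the same pre-existing arrays gave -0.42 for Cebpb, -0.29 for Pdia4 and -0.17 for Herpud1, and 0.09 for Cebpd, all uncalled.

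Between newly transcribed and pre-existing RNA at 60 min, a comparison without total RNA, 4 members were higher in newly transcribed RNA and 2 lower, against 22.3% of probe sets higher and 30.6% lower. Ppp1r15a had 10.50, 9.76 and 10.15 in newly transcribed RNA, against 6.76, 7.33 and 7.13 in pre-existing RNA, and was higher by 3.06 ± 0.39 (adjusted p = 9.8e-05). Ddit3 (1.56 ± 0.30), Cebpd (1.41 ± 0.46) and Cebpg (1.33 ± 0.23) were also higher, and the fractions did not overlap for Ppp1r15a, Ddit3, Cebpd or Cebpg. Pdia4 had 4.68, 4.66 and 4.64 in newly transcribed RNA, against 8.26, 7.61 and 8.09 in pre-existing RNA (-3.33 ± 0.44, adjusted p = 0.00015), the newly transcribed arrays again under 5. Calr was also lower in newly transcribed RNA (-1.09 ± 0.23, adjusted p = 0.0023). Cebpb (1.16 ± 0.71), Herpud1 (0.94 ± 0.27) and Xbp1 (0.86 ± 0.26) were not called. Cebpd was not called without newly transcribed replicate 1 (1.05) or pre-existing replicates 1 (1.36) or 3 (1.40), nor Calr without newly transcribed replicate 2 (-0.98). With no filter Cebpd was not called either (adjusted p = 0.056). Herpud1 was called without newly transcribed replicate 3 (1.04) or pre-existing replicate 3 (1.03), and Xbp1 without newly transcribed replicate 1 (1.08). Herpud1 was also called after quantile normalization (1.02), and Cebpb in 1 fit over all 45 arrays (adjusted p = 0.011). The median over all probe sets in this comparison was -0.20 after quantile normalization and -0.30 without it, and in that of pre-existing and total RNA 0.01 and 0.11.

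After 15 min of labelling 1 member differed from 30 min of labelling, both at 500 µM. Herpud1 had 9.02, 9.41 and 8.79 in RNA labelled for 15 min, against 10.04, 10.14 and 11.18 (lowest, median and highest) in RNA labelled for 30 min. The groups did not overlap, and Herpud1 was lower at 15 min (-1.37 ± 0.26, adjusted p = 0.00055), with -1.51 in its other probe set. Of all probe sets, 7.59% were lower and 9.50% higher. The remaining 8 estimates were between -0.98 (Ppp1r15a) and -0.19 (Cebpd), and the median of the members was -0.82, beside -0.18 over all probe sets. Ppp1r15a was called without 15 min replicate 1 (-1.13) and Cebpb without 15 min replicate 2 (-1.08).

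After 60 min of labelling at 200 µM, Ddit3 and Herpud1 were lower than after 30 min at 500 µM, with -1.30 ± 0.22 and -1.05 ± 0.26 (adjusted p = 0.00023 and 0.0041), against 12.1% of probe sets lower and 5.23% higher. Herpud1 was not called without 60 min replicate 3 (-0.95). Its 30 min mean was 11.07 in the set of replicates 1, 4 and 7, and 10.13 and 10.13 in the other sets, against 9.39 at 60 min. In the 2F experiment Ddit3 (-1.29 ± 0.22, adjusted p = 0.00042) and Ppp1r15a (-1.03 ± 0.33, adjusted p = 0.029) were lower than at 30 min, against 7.16% of probe sets lower and 3.69% higher. Ddit3 thus had 8.77, 8.89 and 9.20 in the 2F experiment, below the lowest of the 9 values at 30 min (9.96). Ppp1r15a lost its call with the 30 min sets averaged (adjusted p = 0.087), and without 2F replicate 1 (-0.78) or 2 (-1.02). The call was also lost with no filter (adjusted p = 0.052) and with the replicate number as a block (adjusted p = 0.20). The 30 min means of Ppp1r15a by set were 11.44, 10.10 and 10.65, against 9.69 in the 2F experiment. Labelling time and 4sU dose cannot be told apart in these 2 comparisons.

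In 2 members, 1 probe set followed a different course from the others of its gene. Ddit3 1443897_at had 9.80, 9.66 and 10.004 in RNA labelled for 15 min, 8.54, 9.34 and 10.02 (lowest, median and highest) at 30 min, 7.56, 6.77 and 7.05 at 60 min and 6.37, 6.58 and 6.37 at 60 min 2F. In total RNA it had 4.37 to 6.07 at 30 min and 3.35 to 3.88 at 60 min 2F. Each 60 min array was thus below every 15 min and 30 min array, and the probe set was enriched in newly transcribed RNA by 4.22 ± 0.22 at 30 min, against a total RNA level near the minimum of 5, where the main Ddit3 probe set had 1.96.

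Cebpg 1425261_at had 9.78, 8.98 and 8.76 at 15 min, 8.15, 8.41 and 8.97 at 30 min, 6.80, 6.10 and 6.43 at 60 min and 6.57, 6.53 and 6.22 at 60 min 2F. In total RNA it had 4.79 to 6.39 at 30 min and 4.45 to 4.82 at 60 min 2F, and it was enriched by 3.08 ± 0.19 at 30 min. Between 15 min and 30 min these 2 probe sets had 0.53 and 0.67, whereas the main probe sets of Ddit3 and Cebpg had -0.82 and -0.58. Against 30 min, the 60 min groups had -2.171 ± 0.24 for Ddit3 1443897_at and -2.06 ± 0.22 for Cebpg 1425261_at (adjusted p = 5.3e-06 and 3.0e-06), and the 2F groups -2.86 and -2.06. The main Cebpg probe set had -0.10 and 0.14 in these comparisons. After 2 h of actinomycin D, Cebpg 1425261_at had 4.54, 4.64 and 4.65, against 4.62, 4.69 and 4.95 in untreated cells, both below the minimum for testing. What part of the transcript these probe sets read is not known from the files, and its part in the difference was not tested.

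**Figure D4:**
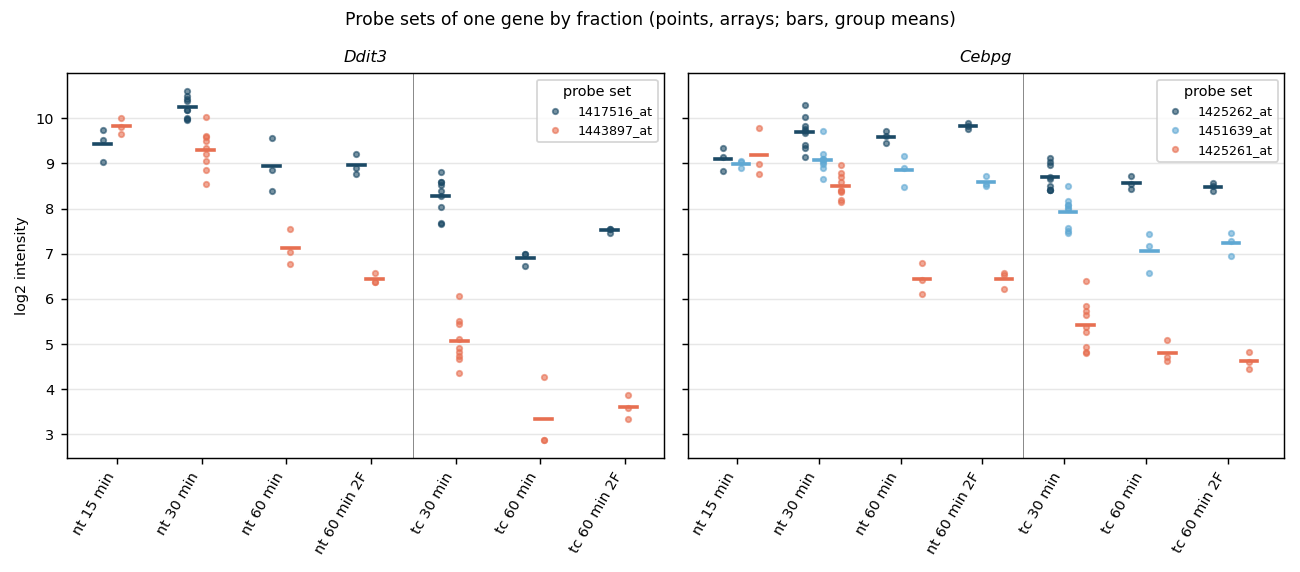
Log2 intensity (vertical axis) of each probe set of Ddit3 and Cebpg by fraction and labelling time (horizontal axis), with points for arrays and bars for group means. Ddit3 1443897_at and Cebpg 1425261_at are near or above 9 at 15 min and near 6.4 at 60 min 2F, while the main Cebpg probe set has means of 9.11 at 15 min and 9.83 at 60 min 2F.

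Xbp1 1420012_at (mean 4.57) and Cebpd 1456605_at (mean 2.70) were below the minimum of 5 and were not tested in any comparison. Herpud1 1435626_a_at had 1.51, 1.33 and 1.20 for newly transcribed against total RNA at 30 min, 60 min and 60 min 2F. Calr 1433806_x_at and 1456170_x_at had -0.98 and -1.12 at 30 min, -1.27 and -1.25 at 60 min and -0.69 and -0.64 at 60 min 2F, each further from 0 than the main Calr probe set. Calls that the main probe set did not give also came from Cebpb 1427844_a_at (-1.23 at 15 min against 30 min, 1.07 at 60 min 2F against 30 min), Xbp1 1420011_s_at (1.35 for newly transcribed against total RNA at 60 min) and Xbp1 1420886_a_at (-1.23 at 60 min against 30 min). Cebpg 1451639_at was lower in total RNA than in untreated cells at 60 min (-1.19) and 60 min 2F (-1.01).

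Total RNA was also compared between labelled cells and untreated cells. These cells differed in both label and time, which cannot be told apart in any of these comparisons. The part of label, time or other handling of the cells in the differences was not tested. At 30 min 1 member was higher, Ppp1r15a, and 0 were lower, against 0.544% and 0.181% of probe sets. Ppp1r15a had 7.62, 8.19 and 8.62 (lowest, median and highest) at 30 min, against 6.83, 7.16 and 6.80 in untreated cells. The groups did not overlap, with a change of 1.25 ± 0.24 (adjusted p = 0.011). The call was lost with the 30 min sets averaged (adjusted p = 0.19), without untreated replicate 1 (adjusted p = 0.061) and without replicate 3 (adjusted p = 0.10). It was also lost with the replicate number as a block (adjusted p = 0.23). The other 8 members were between -0.54 (Pdia4) and 0.69 (Cebpb), with adjusted p of 0.39 or more.

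At 60 min in the first experiment 4 members were lower than in untreated cells and 0 were higher, against 4.98% and 3.49% of probe sets. Herpud1 had 7.69, 7.10 and 7.75, against 9.02, 9.13 and 9.16 in untreated cells, and was lower by 1.59 ± 0.16 (adjusted p = 4.7e-06). Also lower were Cebpd (-2.03 ± 0.30, adjusted p = 0.00044), Ddit3 (-1.38 ± 0.25, adjusted p = 0.0020) and Cebpb (-1.63 ± 0.52, adjusted p = 0.038). The groups did not overlap for Herpud1, Cebpd or Ddit3, and the range of Cebpb, 8.03 to 11.34, reached into that of untreated cells. For these 4 members the mean of this total RNA was below both fractions of the same experiment. Herpud1 had 7.51 in total, 8.45 in pre-existing and 9.39 in newly transcribed RNA, and Cebpb 9.69, 11.99 and 13.15. Cebpd had 9.00, 10.08 and 11.49, and Ddit3 6.90, 7.38 and 8.94. The same order was seen in Ppp1r15a (6.77, 7.07 and 10.14) and Xbp1 (10.64, 10.75 and 11.61), and not in Calr, Pdia4 or Cebpg. The share of all probe sets with this order was not counted. Total RNA holds both fractions. The part of the total RNA arrays in these lower values was not tested. Cebpb lost its call without total RNA replicate 2 (-0.80) or 3 (-1.63) or any 1 untreated array. It also lost it with the replicate number as a block (adjusted p = 0.072) and with no filter (adjusted p = 0.071). Pdia4, at -1.38 ± 0.49 (adjusted p = 0.056), was called without total RNA replicate 2 (-1.96) or untreated replicate 1 (-1.84), and in 1 fit over all 45 arrays (adjusted p = 0.029).

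In the 2F experiment 0 of 9 members differed from untreated cells by limma (5 at an unadjusted p below 0.05), against 1.36% of probe sets higher and 0.498% lower. Cebpb had 12.39, 12.36 and 12.49, against 11.48, 10.95 and 11.51 in untreated cells (1.096 ± 0.52, adjusted p = 0.35). Cebpd had 9.88, 10.01 and 10.11, against 11.08, 11.02 and 10.98 in untreated cells (-1.03 ± 0.30, adjusted p = 0.087). Ddit3 (-0.76 ± 0.25), Herpud1 (-0.48 ± 0.16) and Cebpg (8.39 to 8.57, against 8.66 to 9.07 in untreated cells) lay below untreated cells on every array too, and Ppp1r15a (7.39 to 7.64, against 6.80 to 7.16 in untreated cells) lay above them on every array. The fit shares its estimate of spread with the first 60 min experiment. Comparisons with untreated cells share those 3 arrays.

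Over the 11 groups, Ddit3 was highest in newly transcribed RNA at 30 min (10.24 ± 0.24 SD, n = 9), apart from the next group, newly transcribed RNA at 15 min (9.43 ± 0.37, n = 3). It was lowest after 2 h of the drug (6.04 ± 0.10), apart from 1 h (6.84 ± 0.40). Ppp1r15a ran from 10.73 ± 0.61 in newly transcribed RNA at 30 min to 5.05 ± 0.13 after 2 h of the drug, and its 4 newly transcribed groups overlapped in order and stood apart from all total RNA groups. Xbp1 (12.12 ± 0.18), Cebpb (13.70 ± 0.06) and Cebpg (9.83 ± 0.06) were highest in newly transcribed RNA of the 2F experiment, which overlapped with the next group in each case. All 3 were lowest after 2 h of the drug (8.81 ± 0.21, 8.35 ± 0.28 and 7.11 ± 0.24), apart from the group above. Cebpd was highest in newly transcribed RNA at 30 min (11.59 ± 0.68), which overlapped with 60 min and 15 min, and lowest after 2 h of the drug (7.68 ± 0.11). Herpud1 was highest in newly transcribed RNA at 30 min (10.44 ± 0.48) and lowest in total RNA of the first 60 min experiment (7.51 ± 0.36). Calr had its highest mean in total RNA at 30 min (12.90 ± 0.14) and its lowest in newly transcribed RNA at 60 min (11.70 ± 0.20), with overlap between most neighbours. Pdia4 had its highest mean after 1 h of the drug (8.65 ± 0.06) and its 4 lowest in the newly transcribed groups (5.43 to 4.66), and each group overlapped with the next.

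Across the 11 group means, Pearson correlations between members are given as a description, since the means share their normalization and contrast the same fractions. They were highest for Cebpg and Xbp1 (0.97) and for Ddit3 and Ppp1r15a (0.94). Pdia4 was negatively related to 7 members, from -0.89 with Ppp1r15a to -0.55 with Herpud1, and its r with Calr was 0.51. Among the 5422 other genes whose mean log2 reached 7, the closest to Ddit3 were Sesn2 (0.98), a sestrin induced by stress, Uhrf2 and Ubr2, and those closest to Ppp1r15a were Zfas1 (0.99), Ier2 and Dancr. Xbp1 was closest to Dido1 (0.99), Bcor and Lrch3, and Cebpg to Smarcad1 (0.99), Fem1b and Bcor, so Bcor was named for both. Cebpb was closest to Syvn1 (0.99), the ubiquitin ligase HRD1 of ER-associated degradation, then Bcl3 and Mrtfa. Cebpd was closest to Chac1 (0.94), Plk2 and Ajuba, and Herpud1 to Hmgcs1 (0.96), an enzyme of sterol synthesis, Zfp410 and Bcl7a. Calr was closest to Ube2n (0.94), Ube4b and Tulp3, and Pdia4 to Tmem43 (0.99), Kif20a and Galk2.

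Other genes of the response were counted by list. Of 14 sensors and genes of the PERK and ATF4 arm, 12 were tested after actinomycin D, of which 3 fell at 1 h and 6 at 2 h, against 3.58% and 9.42% of all probe sets, and 0 rose at either time. The median was -0.48 and -0.82, beside 0.09 and 0.10 over all probe sets. The pseudokinase Trib3 fell by 2.95 ± 0.17 at 2 h, as did Ppp1r15b, the constitutive counterpart of Ppp1r15a (-2.39 ± 0.15). Chac1, a glutathione-degrading enzyme, had means of 8.04 in untreated cells, 5.34 after 1 h and 2.18 after 2 h, and Sesn2 had 7.11, 5.67 and 3.97. Both fell, and since their 2 h levels were under the minimum of 5, no fold is given for them. In newly transcribed RNA 7 of 13 tested were higher and 1 lower at 30 min, 7 and 2 at 60 min, and 7 and 1 in the 2F experiment. Over all probe sets 23.7% were higher and 25.6% lower at 30 min, 17.7% and 21.8% at 60 min, and 24.0% and 21.8% in the 2F experiment, shares that also stand beside the lists that follow. The stress-induced factor Atf3 was higher by 3.29 ± 0.22 at 30 min and 2.19 ± 0.18 in the 2F experiment, Sesn2 by 2.45 ± 0.14 and 2.41 ± 0.17, and Atf6b, a relative of ATF6, was lower at 30 min (-2.15 ± 0.22).

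Of 14 chaperones and folding enzymes tested after actinomycin D, 0 rose and 0 fell at 1 h or 2 h by limma. Over all probe sets 3.58% were lower and 2.57% higher at 1 h, and 9.42% and 0.538% at 2 h. At each time 3 of the 14 genes had an unadjusted limma p below 0.05, and their medians were 0.08 and 0.20. In newly transcribed RNA 5 of 13 were lower and 2 higher at 30 min, 8 and 0 at 60 min, and 6 and 1 in the 2F experiment, with medians of -0.70, -1.25 and -0.85. Pdia6 (-1.68 ± 0.10) and Pdia3 (-1.56 ± 0.13), disulphide isomerases like Pdia4, were lower at 30 min, whereas the co-chaperone Dnajb9 was higher (1.52 ± 0.21). Of 10 genes of ER-associated degradation tested, 1 fell at each time of the drug. Of all probe sets 3.58% were lower at 1 h and 9.42% at 2 h, the latter near this count. The gene that fell was Syvn1, with -1.29 ± 0.28 at 1 h and -1.70 ± 0.28 at 2 h. In newly transcribed RNA 4 were lower and 0 higher at 30 min, 4 and 1 at 60 min, and 4 and 1 in the 2F experiment. Os9, a lectin that recognises misfolded glycoproteins, was lower at 30 min, with 3.39 to 4.498 in newly transcribed RNA, all under 5, against 5.37 to 7.02 in total RNA. Syvn1 was the gene that was higher at 60 min (1.80 ± 0.53) and in the 2F experiment (1.29 ± 0.08). Of the other C/EBP and CCAAT genes 0 of 3 were tested.

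**Figure D5:**
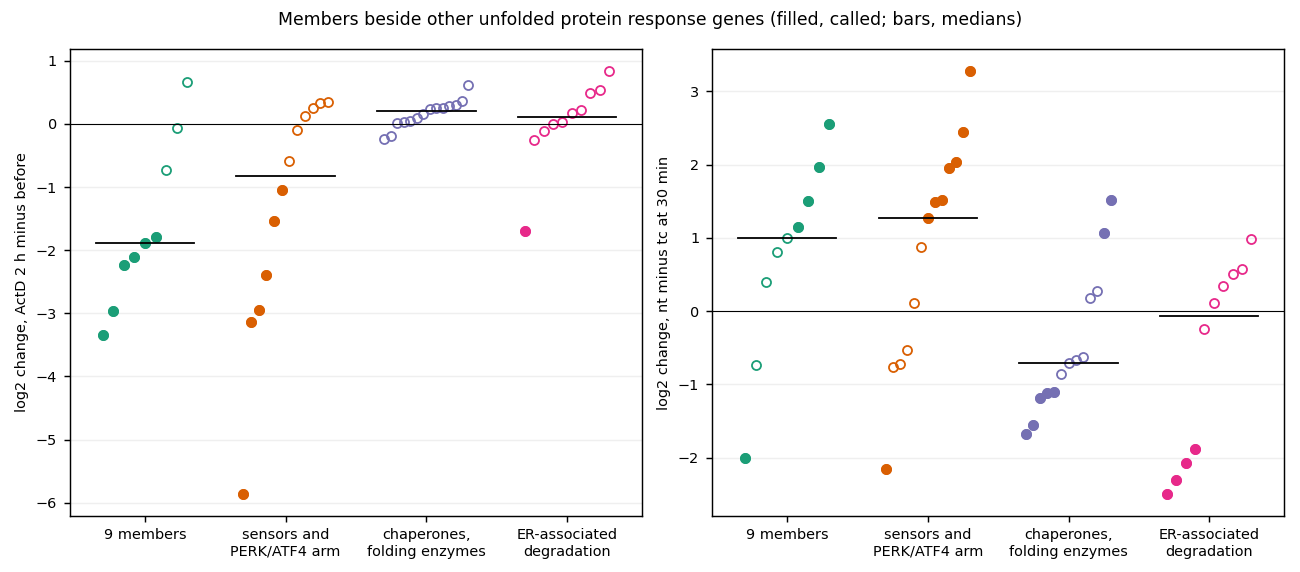
Log2 change (vertical axes) after 2 h of actinomycin D, left, and of newly transcribed against total RNA at 30 min, right, for the 9 members and 3 lists of other genes of the response (horizontal axes). Each point is a gene, filled points were called and bars are medians (-1.88, -0.82, 0.20 and 0.11 on the left, and 1.00, 1.27, -0.70 and -0.07 on the right).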

How the data were processed

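The deposited values were intensities made by the authors with GCRMA, per the submitters' processing notes, its version not being given in the sources used here; their log2 was taken. Of 31451 probe sets, 61 control probe sets were left out. Symbols came from the platform annotation, and 25031 probe sets had 1 symbol, 690 several and 5669 none. Precision is limited by the number of arrays. Fits used lmFit and eBayes of limma 3.58.1 under R 4.3.3, with group as the only factor, on probe sets averaging at least 5 on the log2 scale over the arrays of the fit, an intensity of 32, with Benjamini-Hochberg adjustment over all of them, and were tested on simulated data. Members were named by the rule of the highest mean probe set, similar genes as the 3 of highest Pearson r, and list genes as up to 4 of largest change. The members and lists were chosen with earlier results of these data known. Alternatives were no filter, quantile normalization, the replicate number as a block, 1 fit over all 45 arrays, leaving out arrays, and other probe sets. Averaging the 30 min sets and using the 2F total RNA were added after seeing the data.

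Replicate numbers were taken as pairing samples where deviations from the group means correlated above 0.1 in each of the 3 pairs. This held for untreated cells with actinomycin D after 1 h (0.143 to 0.183) or 2 h (0.259 to 0.576) and with total RNA at 60 min (0.121 to 0.321). It also held at 60 min for total RNA with newly transcribed (0.149 to 0.299) or pre-existing RNA (0.219 to 0.391), and for newly transcribed RNA of 60 min with that of 30 min (0.197 to 0.307). The other comparisons did not meet this rule, and whether replicate numbers pair their samples is not known. Among them were newly transcribed against pre-existing RNA at 60 min (-0.357 to 0.311), although each met the rule with total RNA. Newly transcribed against total RNA at 30 min, with 9 pairs, had -0.125 to 0.460.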

Additional observations from a re-analysis of the deposited data

Results flagged for a closer look

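A test of the difference between experiments singled out 3 of 27 member results. The enrichment of Cebpb in newly transcribed over total RNA was 2.66 higher on the log2 scale in the first 60 min experiment than at 30 min, and that of Cebpd was 2.10 higher. For Pdia4 the change in the 2F experiment minus that at 30 min was -1.495, with newly transcribed levels near or under the minimum of 5 in both. The total RNA arrays of the first 60 min experiment, on which the first 2 rest, lay far apart (Cebpb 11.34, 8.03 and 9.69), and with the 2F total RNA in their place the differences were -0.065 and 1.098, neither called. No array stood out in the 18 combinations examined of a member and a group of 9 arrays, newly transcribed or total RNA at 30 min. Groups of 3 arrays were not examined in this way.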

How the results depend on the processing

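Of 1308 single-gene alternatives 1190 kept direction and call, 37 lost the call, 38 gained it and 43 changed sign. Causes of the changes were not tested, except that no filter tests more probe sets and averaging or leaving out uses fewer arrays. Member counts at actinomycin D 1 h, 2 h and between, and for newly transcribed against total RNA in all 3 experiments, stayed within 1.5 times of those reported under every setting tried. With the replicate number as a block, pre-existing against total RNA had 1 member called, newly transcribed RNA of 60 min 2F against 30 min 1, and total RNA at 30 min against untreated cells 0, and the block changed no other member count by more than 1.5 times. In 1 fit over all 45 arrays pre-existing against total RNA had 3. Without the filter 60 min 2F against 30 min had 1. With the 30 min sets averaged, 60 min 2F against 30 min had 1, total RNA at 30 min against untreated cells 0, and differences of enrichment 1. Pdia4 fell under the filter among newly transcribed groups after quantile normalization and has no value there.

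Leaving out 1 array gave 4 to 4 members at 1 h of the drug, 6 to 6 at 2 h and 4 to 5 between. It gave 6 to 9 for newly transcribed against total RNA at 60 min, 7 to 8 at 60 min 2F, 0 to 2 for pre-existing against total, and 5 to 7 for newly transcribed against pre-existing. Labelling lengths gave 1 to 2 at 15 min, 1 to 2 at 60 min and 1 to 2 at 60 min 2F. Total RNA against untreated cells gave 0 to 1, 3 to 4 and 0 to 0. Differences of enrichment gave 2 to 6, with 6 without total RNA replicate 1.

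Signs changed as follows. For pre-existing against total RNA, the 2F total RNA gave Cebpb -0.42, Ddit3 -0.14, Herpud1 -0.17, Pdia4 -0.29, Ppp1r15a -0.46 and Xbp1 -0.21, and for the difference of enrichment between 60 min and 30 min it gave Cebpb -0.065. Other probe sets gave Herpud1 0.0042 at 1 h of the drug, Calr 0.016 and 0.065 at 2 h, Ddit3 0.53 and Cebpg 0.67 at 15 min against 30 min, Cebpg -2.06 and -0.49 at 60 min 2F against 30 min, 0.37 for pre-existing against total RNA, and 0.67 and 0.058 for total RNA at 30 min and 60 min against untreated cells. Quantile normalization gave Pdia4 0.053 and Ppp1r15a 0.27 between the drug times, Ddit3 -0.0021 and Calr 0.0077 in total RNA at 30 min and 60 min. The block gave Ddit3 -0.10 and Xbp1 0.057 in total RNA at 30 min.

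Leaving out 1 array gave Calr -0.17 to 0.016 at 2 h of the drug, Pdia4 -0.36 to 0.67 and Ppp1r15a -0.14 to 0.22 between the drug times, and Ppp1r15a -0.076 to 0.68 for pre-existing against total RNA. At 60 min against 30 min it gave Cebpb -0.12 to 0.67 and Cebpd -0.45 to 0.10, and at 60 min 2F Xbp1 -0.00075 to 0.18. For total RNA against untreated cells it gave, at 30 min, Pdia4 -1.004 to 0.091, Ddit3 -0.044 to 0.036 and Xbp1 -0.057 to 0.018, at 60 min, Calr -0.13 to 0.038 and Ppp1r15a -0.54 to 0.22, and at 60 min 2F, Pdia4 -0.17 to 0.93 and Calr -0.00033 to 0.13.

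Over all probe sets, higher and lower calls moved by more than 1.5 times, or in their split, in these cases, leaving out single arrays aside. At 1 h of the drug there were 387 and 539, but 129 and 803 in 1 fit and 665 and 1039 unfiltered. At 2 h there were 81 and 1419, but 262 and 1190 after quantile normalization, 30 and 2060 in 1 fit and 139 and 2349 unfiltered. Between the times 343 and 1103 became 458 and 750 after quantile normalization and 224 and 1170 in 1 fit. Newly transcribed against total RNA at 30 min had 3804 and 4112, but 5715 and 4949 unfiltered, and against pre-existing RNA 3437 and 4714, but 5232 and 5429 unfiltered. Pre-existing against total RNA had 288 and 1072, but 1592 and 1902 in 1 fit, 600 and 1208 with the block, 643 and 1502 unfiltered and 3 and 840 with the 2F total RNA. Labelling for 15 min against 30 min had 1541 and 1232, but 2454 and 1239 unfiltered and 966 and 1204 in 1 fit, and 60 min 2F against 30 min 599 and 1161, but 331 and 711 with the block and 725 and 751 in 1 fit. Total RNA against untreated cells at 30 min had 84 and 28, but 40 and 6 with the block, 38 and 6 with the sets averaged, 120 and 48 in 1 fit and 75 and 71 unfiltered, and at 60 min 2F 210 and 77, but 206 and 121 after quantile normalization, 290 and 134 in 1 fit and 324 and 148 unfiltered. The difference of enrichment between 60 min and 30 min had 2497 and 2469, but 360 and 758 with the sets averaged and 1627 and 2174 with the 2F total RNA. Between 60 min 2F and 30 min it had 510 and 404, but 0 and 1 with the sets averaged, 755 and 925 unfiltered and 992 and 653 in 1 fit. Between 60 min 2F and 60 min it had 50 and 14, but 80 and 16 with the block, 169 and 176 unfiltered and 442 and 184 in 1 fit. Without total RNA replicate 1 of the first 60 min experiment these last counts were 721 and 689, pre-existing against total RNA had 1320 and 1301, and total RNA at 60 min against untreated cells 954 and 2036, where 539 and 769 were reported and 253 and 314 were found without replicate 2.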
